A study of Mus musculus with 11 samples.

Results

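Antibodies act on tissue through receptors for their constant (Fc) part, and in the gut they are also carried across the epithelium. The 7 genes described here are the mouse Fc gamma receptor genes *Fcgr1*, *Fcgr2b*, *Fcgr3* and *Fcgr4*, the gene of their shared signalling chain *Fcer1g*, and the antibody transporter genes *Fcgrt* and *Pigr*. They were chosen by name and matched by Ensembl identifier in a table of 22836 genes, and all 7 were found. RNA of whole colon was sequenced in 5 libraries of *Tfam* fl/fl *Cd4* Cre mice given CD4 T cells, in 3 libraries of *Tfam* fl/fl *Cd4* Cre mice without transfer, and in 3 control libraries of *Tfam* fl/fl mice. All 3 groups carry the floxed *Tfam* allele, the gene of a mitochondrial transcription factor. *Cd4* Cre deletes it in T cells that have passed through a CD4-expressing stage, so that CD8 T cells lose it too and other cells of the colon keep it. The transferred cells were CD4 T cells from the spleen and lymph nodes of 7-week-old CD45.1 donors, and the study describes recipients of about 10 months of age. In the following, as in the labels, mice of this genotype are called KO, for the loss of *Tfam* in T cells only, and the groups are called transferred, KO and control colon. The comparisons address how this T cell defect, and its treatment with donor CD4 T cells, go with the antibody-sensing genes of the gut.

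Fc gamma receptors bind IgG that has coated a particle or formed a complex. *Fcgr1*, *Fcgr3* and *Fcgr4* encode activating receptors, which signal through the chain encoded by *Fcer1g* and its tyrosine motif (ITAM), whereas *Fcgr2b* encodes the inhibitory receptor, which recruits a phosphatase. The neonatal Fc receptor, encoded by *Fcgrt*, pairs with beta-2-microglobulin to rescue IgG and albumin from degradation, and the polymeric immunoglobulin receptor, encoded by *Pigr*, carries J chain-linked IgA and IgM from the lamina propria through the epithelium into the gut lumen.

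Between 18214741 and 19178986 reads lay in genes per library. *Tfam* itself ranged from 865 to 1090 normalized counts in transferred colon, from 1040 to 1102 in KO colon and from 977 to 1083 in control colon, so that the groups overlapped and whole-colon RNA does not show the deletion in T cells. *Cd4* ranged from 80.5 to 345 in transferred colon, from 263 to 358 in KO colon and from 46.7 to 99.2 in control colon. Epithelial markers, which define the bulk of this tissue, were present in every library, with a summed level of 602582 normalized counts or more. The summed markers of smooth muscle differed between the groups, at 89715 to 145981 in transferred, 29706 to 43472 in KO and 210474 to 261103 in control colon. Samples are numbered in the labels without an animal being named, and the p-values here therefore measure only how far these samples vary.

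*Fcgr2b*, *Fcgr4*, *Fcgr3* and *Fcer1g* lie on chromosome 1 within 276 kb (GRCm39, 170786186 to 171062219), *Pigr* lies on the same chromosome at 130754397 to 130779986, *Fcgr1* on chromosome 3 at 96190225 to 96201338, and *Fcgrt* on chromosome 7 at 44742412 to 44756819. Stretches just before the start sites of *Fcgr1*, *Fcgr4* and *Pigr* are shown because interferon gamma, a cytokine whose gene was called between these groups, is known to induce *Fcgr1* and *Fcgr4* in mouse macrophages and the *Pigr* counterpart in human epithelial cells. The sequences are those of the RefSeq promoter table (build GRCm38.p6), placed on GRCm39 by an exact match, and are read 5′ to 3′ on the strand of the gene.
Fcgr1, chr3:96201309-96201415, minus strand: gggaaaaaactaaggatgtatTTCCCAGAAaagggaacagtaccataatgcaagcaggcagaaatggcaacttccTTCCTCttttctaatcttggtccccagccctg
Fcgr4, chr1:170846365-170846494, plus strand: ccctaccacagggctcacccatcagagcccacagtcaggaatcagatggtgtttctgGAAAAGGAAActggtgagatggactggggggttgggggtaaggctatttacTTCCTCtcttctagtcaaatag
Pigr, chr1:130754291-130754420, plus strand: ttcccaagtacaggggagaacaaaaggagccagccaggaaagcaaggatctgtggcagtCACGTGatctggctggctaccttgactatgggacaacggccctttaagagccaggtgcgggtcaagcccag
Capitals in *Fcgr1* mark a match to the gamma-activated site TTCNNNGAA, 109 to 101 bases before the RefSeq start, and a match to the PU.1 core GAGGAA on the other strand at 55 to 50 bases. In *Fcgr4* they mark a match to an interferon-response core (GAAA, any 2 bases, GAAA) at 73 to 64 bases and a PU.1 core at 22 to 17 bases, and in *Pigr* the E-box CACGTG at 71 to 66 bases. *Fcgr3* also held the PU.1 core, at 6 to 1 bases in the first of its 2 promoters in that table and 15 to 10 bases in the second, and none of these letters occurred in the windows of *Fcgr2b*, *Fcer1g* and *Fcgrt*. Of the 250-base windows before 32851 RefSeq starts, 7.02% held the gamma-activated site, 2.98% the interferon-response core, 23.3% the PU.1 core and 6.02% the E-box on either strand. These matches are descriptions of letters and show no binding.

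All 5 receptor genes were higher in KO than in control colon, between 2.75-fold for *Fcgr2b* and 6.69-fold for *Fcgr4*, whereas the transporter genes *Fcgrt* and *Pigr* passed the test in neither direction. A normalized count is the number of reads of a gene divided by 1 factor per library. The test was limma on log2(normalized count + 1), run over 16781 genes whose mean was 10 or more, and genes with a Benjamini-Hochberg adjusted p under 0.05 were called. The 5 of 7 called higher stand beside 22.7% of all tested genes called higher in this comparison, and the 0 of 7 called lower beside 22.9% called lower. In whole tissue, more cells of a type and more RNA per cell cannot be told apart.

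*Fcgr4*, the receptor for IgG2 class complexes on monocytes, macrophages and neutrophils, differed most. Its level was 149, 50.3, 102, 192 and 94.2 normalized counts in transferred colon, 234, 289 and 223 in KO colon, and 38.6, 36.8 and 33.1 in control colon. The control libraries lay close together and below every other library, and the transferred libraries lay between the other groups with no overlap. The log2 fold change of KO over control colon was 2.74 (standard error 0.38, adjusted p = 0.000207).

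*Fcgr1*, the high-affinity IgG receptor, was the least abundant of the set. It had 102, 39.2, 54.0, 80.0 and 48.2 normalized counts in transferred colon, 116, 142 and 111 in KO colon, and 30.1, 22.9 and 32.0 in control colon. The 3 groups did not overlap, although transferred replicate 1 came close to the KO libraries and transferred replicate 2 close to control. The log2 fold change of KO over control colon was 2.09 (standard error 0.32, adjusted p = 0.000407). *Fcgr1* rests on 23 to 32 reads per control library.

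*Fcgr3*, the low-affinity activating receptor, had 465, 181, 351, 347 and 200 normalized counts in transferred colon, 521, 651 and 548 in KO colon, and 139, 181 and 170 in control colon. Every KO library was above all others, and transferred replicates 2 and 5 lay at the upper edge of the control libraries. KO exceeded control colon by 1.81 on the log2 scale (standard error 0.31, adjusted p = 0.000702).

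*Fcgr2b*, the inhibitory receptor of B cells and myeloid cells, had 662, 383, 522, 640 and 403 normalized counts in transferred colon, 808, 934 and 711 in KO colon, and 242, 386 and 273 in control colon. It is the member of this group whose transferred and control libraries overlapped, since transferred replicate 2 fell just below control replicate 2. Its log2 fold change of 1.46 in KO over control colon (standard error 0.23, adjusted p = 0.000519) was lower than those of the activating receptors.

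*Fcer1g*, whose chain also serves the IgE receptor and several C-type lectin receptors, had 267, 171, 244, 333 and 212 normalized counts in transferred colon, 427, 568 and 510 in KO colon, and 98.9, 137 and 116 in control colon. The 3 groups were apart from each other in every library. The log2 fold change of KO over control colon was 2.09 (standard error 0.22), with the smallest adjusted p of the 7 genes (4.94e-05).

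**Figure D1:**
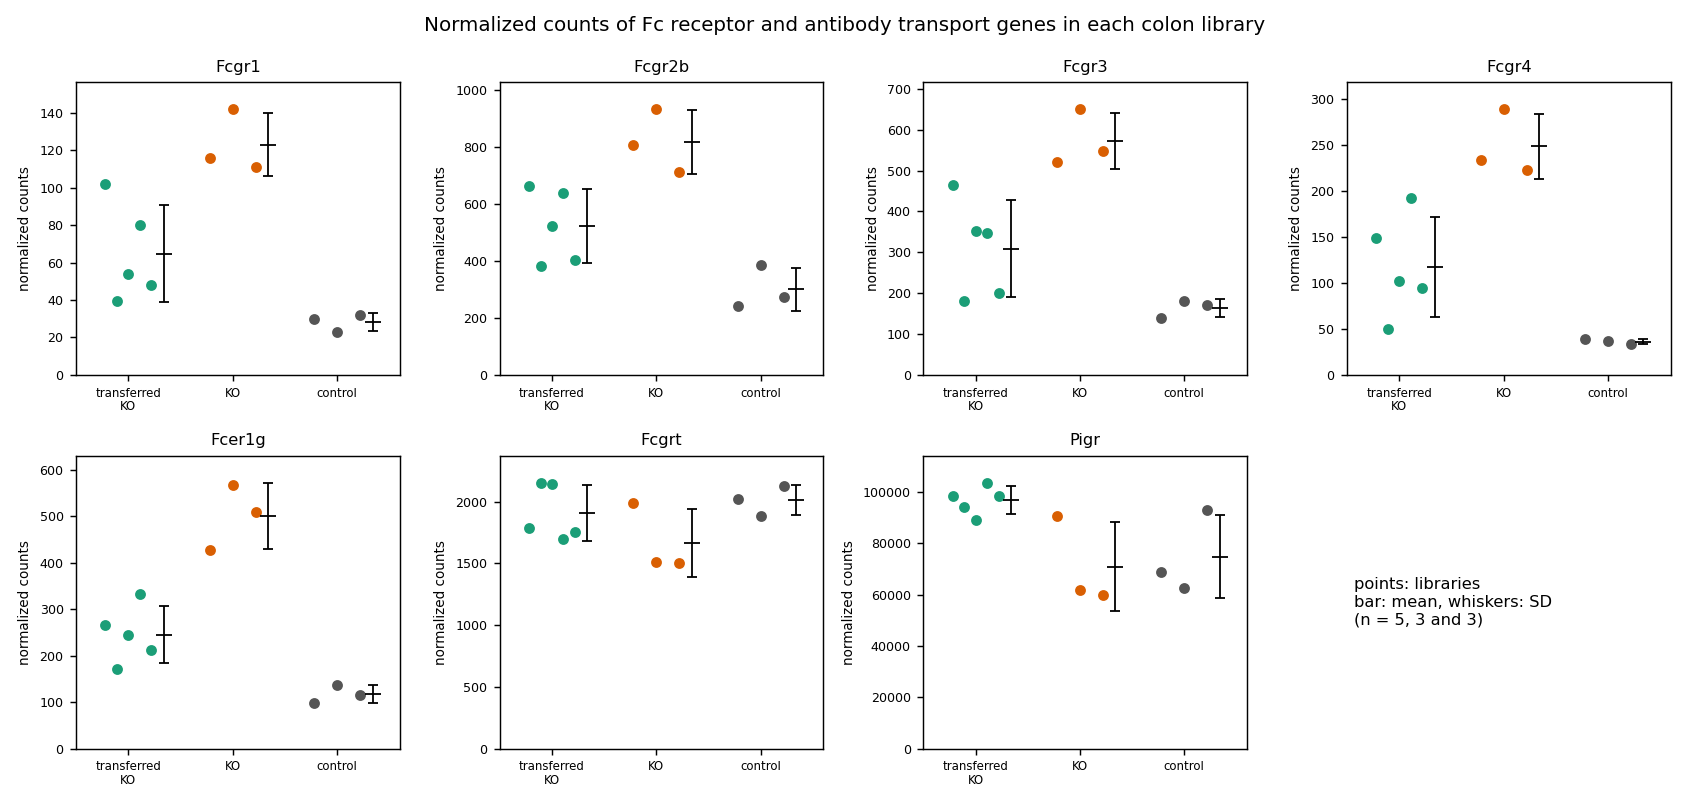
Normalized counts (y axis, from 0) of each gene in the single libraries of transferred KO (n = 5), KO (n = 3) and control colon (n = 3), with the mean and SD beside each group. The KO libraries are the highest in all 5 receptor panels, while the groups overlap for *Fcgrt* and *Pigr*.

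*Fcgrt* had similar levels in all 3 groups. It had 1783, 2153, 2146, 1697 and 1752 normalized counts in transferred colon, 1985, 1507 and 1501 in KO colon, and 2023, 1884 and 2125 in control colon. KO replicates 3 and 4 were the lowest libraries, but replicate 1 of that group lay among the controls. The log2 fold change of KO over control colon was -0.28 (standard error 0.13, adjusted p = 0.106). Without KO replicate 1 it was -0.42 (adjusted p = 0.0227), so that this library decides the call.

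*Pigr* was the most abundant of the 7 by far, with 0.297% to 0.579% of all reads of a library. It had 98678, 94189, 89019, 103678 and 98665 normalized counts in transferred colon, 90841, 61698 and 60033 in KO colon, and 69009, 62470 and 93081 in control colon. The transferred libraries were mostly the highest, but KO replicate 1 and control replicate 3 lay within their range, and the other libraries of KO and control colon lay below it. Between KO and control colon the log2 fold change was -0.08 (standard error 0.22, adjusted p = 0.778).

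In transferred colon, all 5 receptor genes were called lower than in KO colon without transfer, beside 14.2% of all tested genes called lower. None of the 7 was called higher, beside 17.0% of all tested genes. Each of the 5 was also lower in every transferred library than in any KO library. The share of all tested genes that separated in this way was not computed, here or in the other comparisons. The log2 fold changes of transferred over KO colon were -1.20 for *Fcgr4* (standard error 0.34, adjusted p = 0.0196), -1.05 for *Fcer1g* (0.20, adjusted p = 0.00288) and -0.99 for *Fcgr1* (0.29, adjusted p = 0.0223). They were -0.97 for *Fcgr3* (standard error 0.27, adjusted p = 0.0192) and -0.67 for *Fcgr2b* (0.21, adjusted p = 0.0307), which again moved least. *Fcgrt* had a log2 difference of 0.20 (standard error 0.12, adjusted p = 0.226) and *Pigr* 0.48 (0.20, adjusted p = 0.0866). With 1 library left out, the number called lower was 1 without KO replicate 3 (*Fcer1g*), 2 without KO replicate 4 (*Fcgr4* and *Fcer1g*), and 4 without KO replicate 1 or without transferred replicate 2, 3 or 5. The call of *Fcgr2b* was lost in each of these 6 cases, with adjusted p values of 0.0502 to 0.128. *Pigr* was called higher without KO replicate 1 (log2 fold change 0.67, adjusted p = 0.0301), with quantile normalization (0.59, adjusted p = 0.0242) and with DESeq2 (0.45, adjusted p = 0.0248).

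Against control colon, 2 of the 5 receptor genes were called higher in transferred colon. *Fcgr4* (log2 fold change 1.54, standard error 0.34, adjusted p = 0.0484) and *Fcer1g* (1.04, standard error 0.20, adjusted p = 0.032) passed the test, which is 2 of 7 beside 1.14% of all tested genes, and none was called lower, beside 0.453%. *Fcgr1* had a log2 difference of 1.09 (standard error 0.29, adjusted p = 0.0784), *Fcgr3* 0.83 (0.27, adjusted p = 0.136) and *Fcgr2b* 0.79 (0.21, adjusted p = 0.0814). These did not pass the test. All 5 transferred libraries were above all control libraries for *Fcgr1*, 4 of 5 were for *Fcgr2b*, and for *Fcgr3* all 5 were, replicate 2 by less than 1 normalized count. *Fcgrt* had a log2 difference of -0.08 (standard error 0.12, adjusted p = 0.736) and *Pigr* of 0.39 (0.20, adjusted p = 0.303). These calls lie near the threshold: all 5 receptors were called with DESeq2 or without transferred replicate 2, and none was called without transferred replicate 1, 3 or 4 or without any single control library. Without any single KO library, which enters through the shared estimate of the spread, *Fcer1g* alone was called. The comparisons share samples with each other, so their values stand side by side and are not independent of one another.

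**Figure D2:**
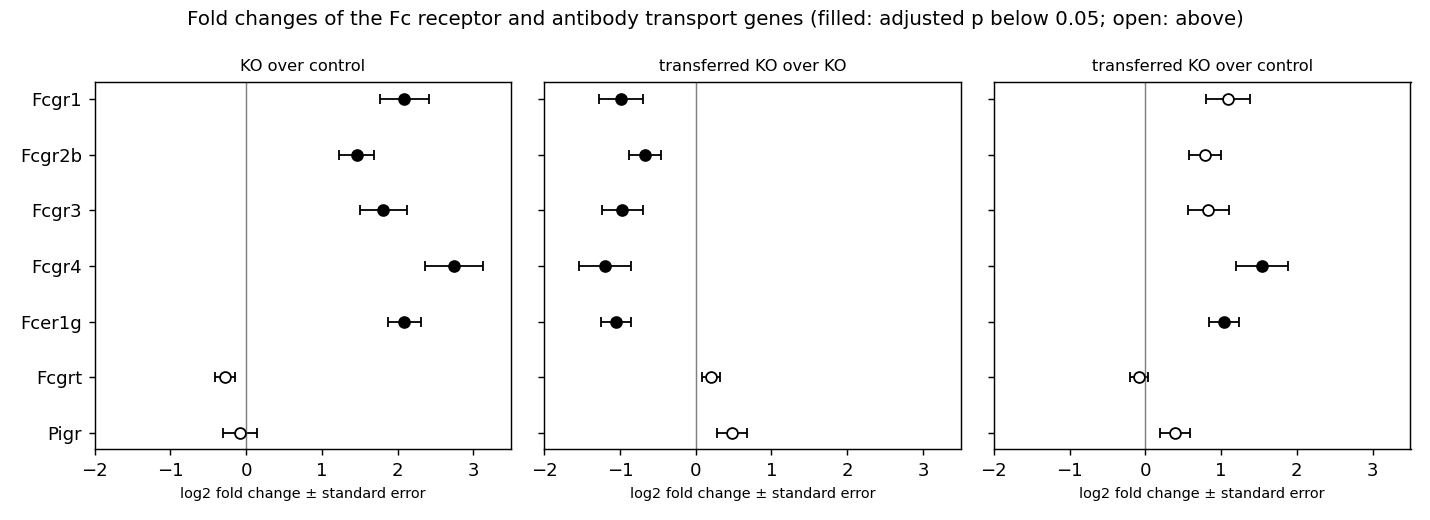
Log2 fold change with its standard error (x axis) of each gene (y axis) for KO over control, transferred over KO, and transferred over control colon. Filled points have an adjusted p under 0.05: 5 receptors to the right in the first panel, the same number to the left in the second, and *Fcgr4* and *Fcer1g* to the right in the third.

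The transferred libraries differed among themselves. Replicate 2 was the lowest of the 5 for all 5 receptor genes, and replicate 5 was the next lowest for each of them, whereas replicate 1 was highest for *Fcgr1*, *Fcgr2b* and *Fcgr3* and replicate 4 for *Fcgr4* and *Fcer1g*. The summed level of 15 macrophage and monocyte markers was also lowest in replicate 2 (7394 normalized counts) and replicate 5 (8837). It was 13247 in replicate 1, 15235 in replicate 3 and 13352 in replicate 4. *Lyz2* weighs heavily in this sum, with 7811 in replicate 3. Single markers differed: *Csf1r* was also lowest in replicates 2 (429) and 5 (555). In contrast, *Cd68* (415) and *Mertk* (1314) were highest in replicate 5, and *Cd163* (116) was highest in replicate 2. *Cd4* was lowest in replicate 2, at 80.5, and next lowest in replicate 5, at 137. The sum of the 8 T cell markers had another order, with 624 in replicate 2, 777 in replicate 3 and 1026 in replicate 5.

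Markers of several immune cell types moved with the receptor genes, whereas those of smooth muscle and fat cells went the other way. Of 15 macrophage and monocyte markers, 11 were called higher and 2 lower in KO than in control colon, with a median log2 fold change of 1.46 beside 0.02 over all tested genes. Their summed level was 7394 to 15235 normalized counts in transferred, 17377 to 22245 in KO and 5027 to 7483 in control colon. The markers called lower were *Cd163* and *Mertk*, scavenger and clearance receptors of resident macrophages, and *Mrc1* and *Cd68* were not called. All 9 tested neutrophil markers were called higher in KO than in control colon, but some entered the test only through their level in KO colon. *Retnlg*, for example, averaged 81.4 in KO, 2.55 in transferred and 1.43 in control colon. The sum of the 10 markers was 93.6 to 419 in transferred, 1980 to 5878 in KO and 73.5 to 120 in control colon. *Cxcr2* was at 0 in every control library. All 8 T cell markers were called higher in KO than in control colon and 4 of 8 in transferred than in control colon, with sums of 624 to 1827 in transferred, 1650 to 1716 in KO and 330 to 411 in control colon. Of 7 dendritic cell markers, 5 were called higher and 1 lower in KO than in control colon, and their sum was 175 to 577 in transferred, 818 to 841 in KO and 152 to 204 in control colon. Of 12 epithelial markers, 2 were called higher and 2 lower. All 8 smooth muscle markers, all 5 fat cell markers and 4 of 9 endothelial markers were called lower in KO than in control colon. In these 3 lists, 0 were called higher. The part of these cells in the levels of the receptor genes was not tested.

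The receptor genes were also set against 1 marker, *Csf1r*, the gene of the macrophage growth factor receptor. Relative to it, *Fcgr4* and *Fcer1g* separated KO from control colon, and the other 3 receptor genes did not. *Fcgr4* over *Csf1r* was 0.152, 0.117, 0.133, 0.22 and 0.17 in transferred colon, 0.179, 0.194 and 0.197 in KO colon, and 0.12, 0.0826 and 0.0628 in control colon. The KO and control libraries did not overlap, and the transferred libraries spanned both. *Fcer1g* over *Csf1r* was 0.327 to 0.451 in KO and 0.22 to 0.308 in control colon, again without overlap. For *Fcgr1*, *Fcgr2b* and *Fcgr3* these 2 groups overlapped, with *Fcgr2b* over *Csf1r* at 0.619 to 0.628 in KO and 0.519 to 0.866 in control colon. *Csf1r* itself was higher in KO than in control colon by 1.62 on the log2 scale (standard error 0.28, adjusted p = 0.00086). *Fcgr1* (2.09) and *Fcgr3* (1.81) also had larger log2 fold changes than this marker, although their ratios overlapped. The ratios therefore say only whose level relative to this 1 marker separated KO from control libraries. No other macrophage marker was used in this way. Over the 15 macrophage and monocyte markers, log2 fold changes of KO over control colon ran from -2.03 (*Cd163*) to 2.93 (*Ly6c2*), so another marker could give another result. Set against *Tyrobp*, an adapter gene of myeloid and natural killer cells, *Fcer1g* was lower in KO (0.857 to 1.08) than in control colon (1.18 to 1.62). All these ratios were computed after the levels had been seen and carry no test.

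The balance between activating and inhibitory receptor RNA also differed between KO and control colon. *Fcgr4* over *Fcgr2b* was 0.225, 0.131, 0.196, 0.299 and 0.234 in transferred colon, 0.29, 0.309 and 0.314 in KO colon, and 0.16, 0.0954 and 0.121 in control colon. The KO libraries were all above control, and the transferred libraries ran between them, overlapping both at their ends. *Fcgr3* over *Fcgr2b* was 0.472 to 0.703 in transferred, 0.645 to 0.77 in KO and 0.469 to 0.621 in control colon, and *Fcgr1* over *Fcgr2b* was 0.102 to 0.154, 0.144 to 0.156 and 0.0593 to 0.125 in the same groups. For each of these 3 ratios the lowest KO library exceeded the highest control library, narrowly so for *Fcgr3* (0.645 against 0.621). These ratios carry no test either.

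**Figure D3:**
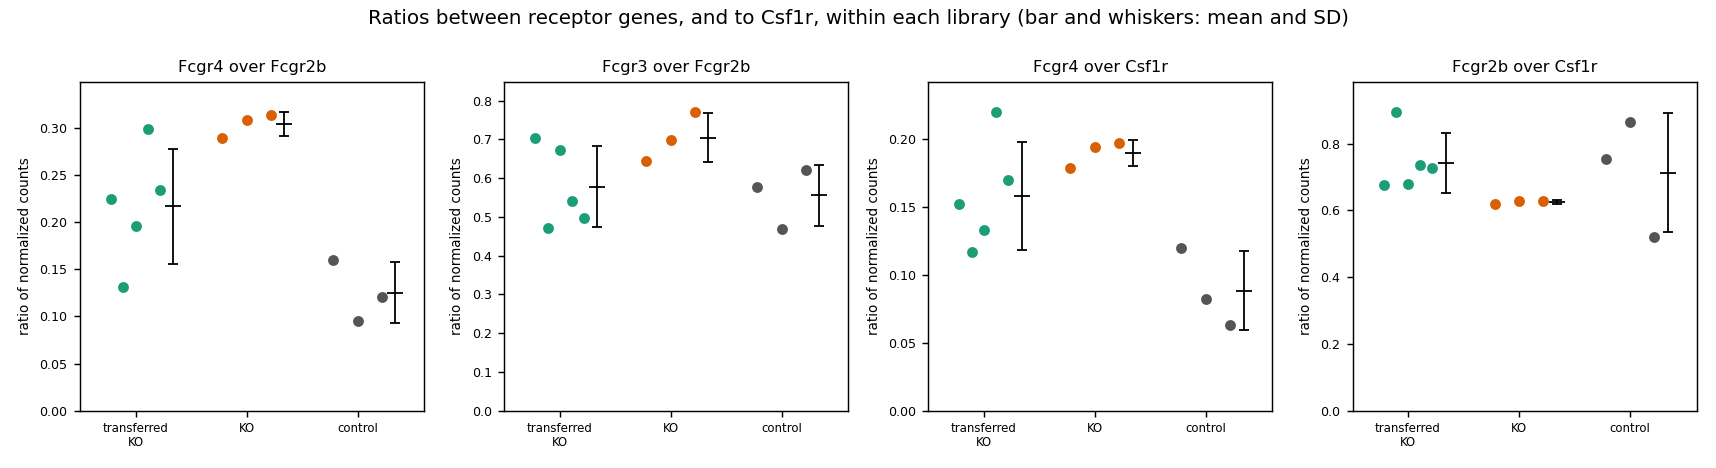
Ratios of normalized counts within each library (y axis, from 0) for transferred KO, KO and control colon, with the mean and SD. *Fcgr4* over *Fcgr2b* and *Fcgr4* over *Csf1r* separate KO from control libraries, whereas *Fcgr2b* over *Csf1r* overlaps between them.

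Per kilobase of exon, the order of the 7 genes depended on the group. With all annotated exons counted, *Pigr* led in each group (23918 normalized counts per kb in transferred, 17500 in KO and 18487 in control colon), and *Fcgr1* was last (18.6, 35.3 and 8.12 per kb in the same groups). In control colon *Fcgrt* (409 per kb) was followed by *Fcer1g* (101), *Fcgr3* (52.8), *Fcgr2b* (51.3) and *Fcgr4* (28.3), and of these neighbours only *Fcgr3* and *Fcgr2b* overlapped between libraries. In KO colon *Fcer1g* (433 per kb) and *Fcgrt* (339) overlapped, followed by *Fcgr4* (194) and *Fcgr3* (185), which overlapped as well, and *Fcgr2b* (140). In transferred colon *Fcgrt* (388 per kb) stood apart from *Fcer1g* (212), and *Fcer1g*, *Fcgr3* (99.9), *Fcgr4* (91.8) and *Fcgr2b* (89.2) each overlapped the next. The order of the Fc gamma receptors depends on the length used. With the length of the canonical transcript alone, *Fcgr3* was at 371 per kb, *Fcgr2b* at 240 and *Fcgr4* at 194 in KO colon, where *Fcgr3* stood apart and *Fcgr2b* and *Fcgr4* overlapped. The annotated exons of *Fcgr2b* (5854 bases) and *Fcgr3* (3092 bases) exceed their canonical transcripts (3403 and 1545 bases), and those of *Fcgr4* do not (1279 bases in both).

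*Fcgr2b* and *Fcgr3* are close relatives, and 0.699% of the 100-base windows in *Fcgr2b* transcripts also occur in those of *Fcgr3*, and 1.14% the other way, so few reads could have been split between them. *Fcgr1*, *Fcgr4*, *Fcer1g* and *Fcgrt* shared no such window with any other gene. *Fcer1g* overlaps *Gm71631*, a long noncoding RNA on the same strand. *Fcgr2b*, *Fcgr4*, *Fcgrt* and *Pigr* each overlap one on the opposite strand, and since the strand setting of the counting is not given in the sources used here, their reads are uncertain to that extent.

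Of the 6 tested genes between *Fcgr3* and *Fcer1g* on chromosome 1, 0 were called higher and 2 lower in KO than in control colon. *Sdhc*, a subunit gene of mitochondrial complex II, had a log2 fold change of -0.23 (adjusted p = 0.227), *Tomm40l* of -0.10 (adjusted p = 0.571) and *Cfap126* of -0.14 (adjusted p = 0.708). *Pcp4l1* (-2.66, adjusted p = 6.37e-05) and *Nr1i3* (-2.75, adjusted p = 0.0197) were lower. *Adamts4*, a protease gene beyond *Fcer1g*, was higher (adjusted p = 0.000456).

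The pattern over all 11 libraries was most alike for *Fcgr2b* and *Fcgr3* among the 7 genes, with a root mean square difference of 0.23 between their log2 values, each centred on its own mean. *Fcgrt* and *Pigr* differed by 0.27, and *Fcgr4* and *Fcgrt* were the least alike at 1.24. Among all other tested genes the nearest to *Fcgr3* were *C1qb* (0.15) and *Csf1r* (0.16), and to *Fcgr2b* *C1qa* (0.18) and *Nrros* (0.19). The nearest to *Fcgr1* were *Nckap1l* and *Vav1* (0.17 each), to *Fcgr4* *Podnl1* (0.14) and *Spn* (0.17), and to *Fcer1g* *H2-T10* (0.14). *Fcgrt* was nearest to *Cebpzos* (0.07) and *Pigr* to *Ptprb* (0.13). All points share the same 11 libraries and their groups, so these are descriptions with no test.

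Most genes that act with the receptors were called in the same direction as the receptors, whereas 1 of 11 genes that move the transporters' cargo through cells was called in KO against control colon. Of 20 genes of Fc gamma receptor signalling, 18 were called higher and 2 lower in KO than in control colon, with a median log2 fold change of 1.81 beside 0.02 over all tested genes. In transferred against KO colon, 1 was called higher and 12 lower (median -0.84 beside -0.02), and in transferred against control colon 5 were called higher and 0 lower (median 0.91 beside -0.01). Among those with the smallest adjusted p in KO over control colon were *Ncf1*, a subunit gene of the phagocyte oxidase (log2 fold change 2.43, adjusted p = 2.58e-05), and the adapter genes *Lat2* (1.64, adjusted p = 8.04e-05) and *Lcp2* (2.64, adjusted p = 0.00022). *Ncf1* had 206, 126, 172, 274 and 154 normalized counts in transferred colon, 359, 391 and 361 in KO colon, and 65.9, 72.6 and 65.0 in control colon, with no overlap between the groups. The genes called lower were the exchange factor gene *Vav3* (log2 fold change -1.68, adjusted p = 0.00179) and the kinase gene *Prkcd* (-0.62, adjusted p = 0.0164), chosen here after their values were seen.

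Of the signalling adapters and the receptors that signal through *Fcer1g*, 6 of 9 had a mean of at least 10. A gene can pass this limit through the group in which it is high. Of the 6, 5 were called higher and 0 lower in KO than in control colon (median log2 fold change 2.75). In transferred against KO colon, 0 were called higher and 4 lower (median -1.39). *Tyrobp*, the adapter of myeloid and natural killer cell receptors, had 273, 155, 273, 306 and 177 normalized counts in transferred colon, 498, 578 and 471 in KO colon, and 68.8, 84.5 and 98.1 in control colon. The groups did not overlap, and the log2 fold changes were 2.62 in KO over control (adjusted p = 2.58e-05), -1.16 in transferred over KO (adjusted p = 0.00311) and 1.45 in transferred over control colon (adjusted p = 0.0216). The C-type lectin genes *Clec4e*, *Clec4d* and *Clec4n*, whose products pair with the *Fcer1g* chain to sense microbes and dead cells, had log2 fold changes of 5.99, 5.12 and 2.88 in KO over control colon (adjusted p = 2.89e-05, 0.000189 and 0.000228). *Clec4e* had 9.13, 2.01, 14.7, 7.62 and 6.57 normalized counts in transferred colon and 96.9, 348 and 136 in KO colon, against 1 to 2 reads in each control library.

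Of 5 genes of the inhibitory branch, 4 were called higher and 0 lower in KO than in control colon (median log2 fold change 0.74). *Inpp5d*, the lipid phosphatase SHIP1 that *Fcgr2b* recruits, had 267, 185, 221, 325 and 177 normalized counts in transferred colon, 424, 379 and 381 in KO colon, and 140, 120 and 136 in control colon. Its groups did not overlap either. It differed by 1.57 on the log2 scale (standard error 0.21, adjusted p = 0.000155) in KO over control and by -0.78 (0.18, adjusted p = 0.00865) in transferred over KO colon. The tyrosine phosphatase gene *Ptpn6* had log2 fold changes of 0.74 (adjusted p = 0.000821) and -0.23 (adjusted p = 0.144) in these comparisons, and the adapter genes *Dok2* and *Dok1* had 2.02 (adjusted p = 0.00205) and 0.46 (adjusted p = 0.0405) in the first.

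Among 11 other genes of Fc receptors or their relatives, 6 had a mean of at least 10, of which 5 were called higher and 1 lower in KO than in control colon. The gene called lower was *Fcrl2* in the annotation used here (named *Fcrls* by RefSeq), known in mouse mainly from microglia and other resident macrophages. It had 125, 71.4, 82.5, 62.9 and 54.8 normalized counts in transferred colon, 18.6, 9.69 and 7.67 in KO colon, and 83.8, 91.5 and 55.1 in control colon. Here the KO libraries were the low ones, and the transferred and control libraries overlapped. The log2 fold changes were -2.64 (standard error 0.37, adjusted p = 0.000211) in KO over control, 2.66 (0.33, adjusted p = 0.000291) in transferred over KO and 0.02 (0.33, adjusted p = 0.983) in transferred over control colon. *Cd163*, a marker of resident macrophages, likewise averaged 94.9 in transferred, 21.5 in KO and 87.1 in control colon. It is 1 of 2 macrophage and monocyte markers called lower in KO than in control colon, while 11 of 15 were called higher.

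*Trim21*, which encodes the receptor for antibodies inside the cell, had log2 fold changes of 1.27 (adjusted p = 0.000207) in KO over control, -0.89 (adjusted p = 0.00195) in transferred over KO and 0.38 (adjusted p = 0.22) in transferred over control colon. *Fcmr*, the IgM receptor gene next to *Pigr* on chromosome 1, was higher in KO than in control colon (log2 fold change 3.97, adjusted p = 0.00424), as was the B cell gene *Fcrl1* (2.52, adjusted p = 0.00522). The sum of 8 B cell markers was 185 to 1032 normalized counts in transferred, 1187 to 1492 in KO and 138 to 490 in control colon, and its part in these results was not tested.

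**Figure D4:**
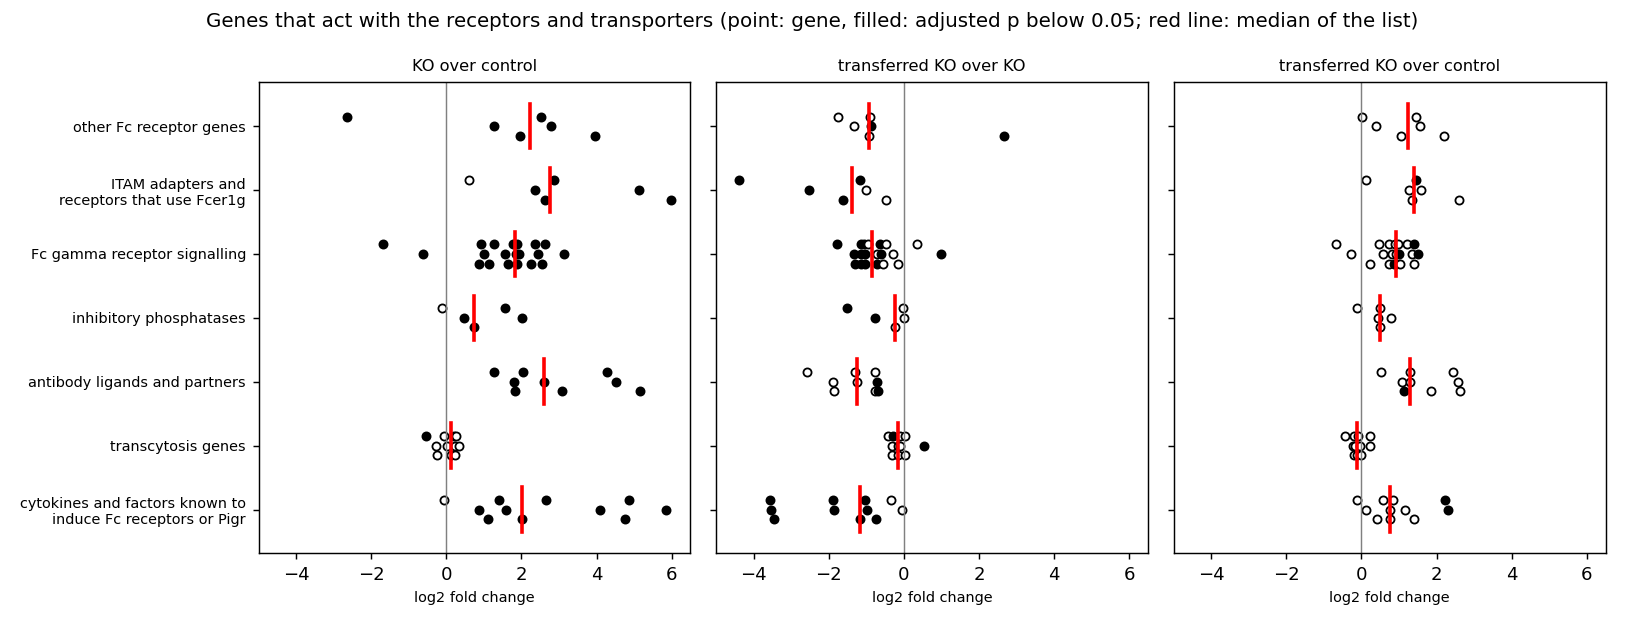
Log2 fold changes (x axis) of genes that act with the receptors and transporters, by list (y axis), in the same 3 comparisons. Each point is a gene, filled where the adjusted p is under 0.05, and the red line is the median of the list. In KO over control colon the medians lie between 0.74 and 2.75, except for the transcytosis genes at 0.11.

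The antibodies that these proteins bind and carry were more abundant as RNA in KO colon. All 9 tested of 10 genes for antibody chains and partners were called higher than in control colon (median log2 fold change 2.61), and 0 were called higher and 2 lower in transferred than in KO colon. *Igha*, the IgA heavy chain constant gene, had 76627, 34548, 83673, 74481 and 42392 normalized counts in transferred colon, 105051, 90749 and 105390 in KO colon, and 31162, 15285 and 29419 in control colon. Its groups did not overlap, and the log2 differences were 2.05 (standard error 0.37, adjusted p = 0.000946) in KO over control colon and -0.77 (0.33, adjusted p = 0.0932) in transferred over KO colon. *Jchain*, which joins IgA into the form that *Pigr* carries, had log2 fold changes of 1.81 (adjusted p = 0.000336) and -0.69 (adjusted p = 0.0498) in these comparisons. The summed plasma cell markers were 12444 to 20205 in transferred, 19495 to 19914 in KO and 10638 to 14285 in control colon, and their part in these levels was not tested.

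The RNA of the cargo relative to that of its transporter was highest in KO colon. *Igha* over *Pigr* was 0.777, 0.367, 0.94, 0.718 and 0.43 in transferred colon, 1.16, 1.47 and 1.76 in KO colon, and 0.452, 0.245 and 0.316 in control colon. In KO libraries *Igha* exceeded *Pigr*, in all others it was below, and transferred replicates 2 and 5 lay within the control range. *Jchain* over *Pigr* was 0.0866 to 0.162 in transferred, 0.232 to 0.341 in KO and 0.0611 to 0.0981 in control colon. *B2m*, the partner chain of the *Fcgrt* product and of the MHC class I molecules, rose in KO over control colon (log2 fold change 1.26, standard error 0.16, adjusted p = 0.000151) and fell in transferred against KO colon (-0.73, standard error 0.15, adjusted p = 0.0039). *B2m* over *Fcgrt* was 6.22 to 11.3 in transferred, 12.4 to 17.6 in KO and 4.48 to 6.09 in control colon, with no overlap. These ratios are of RNA, were computed after the levels had been seen and carry no test.

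**Figure D5:**
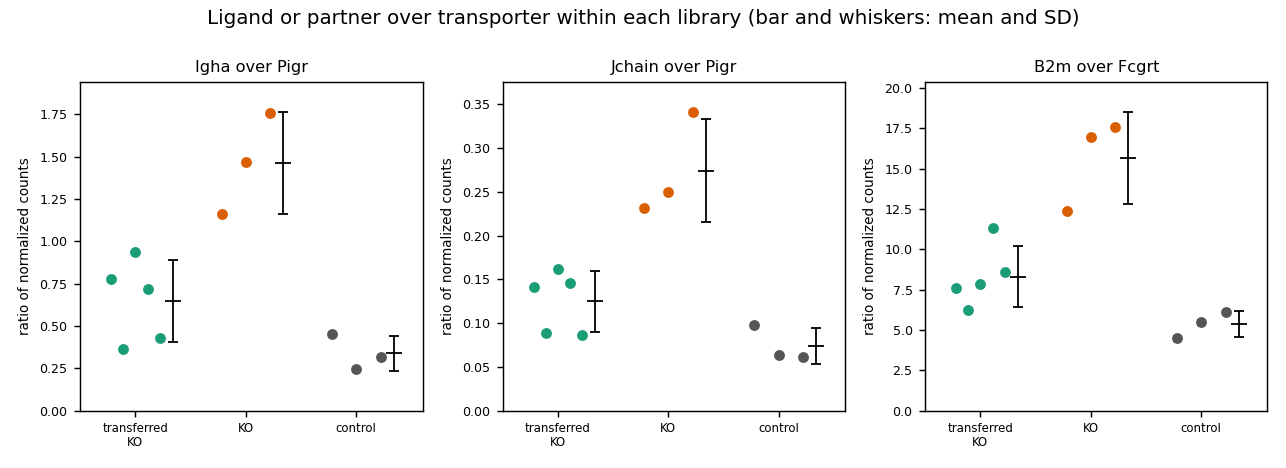
Ratios of normalized counts within each library (y axis, from 0) of *Igha* and *Jchain* over *Pigr* and of *B2m* over *Fcgrt*, in transferred KO, KO and control colon, with the mean and SD. The KO libraries lie above all others in each panel.

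The IgG heavy chain genes, whose products are the ligands of the Fc gamma receptors, were far more variable than *Igha*. *Ighg1* had 581, 243, 258, 2964 and 84.3 normalized counts in transferred colon, 2628, 4665 and 1064 in KO colon, and 22.6, 86.5 and 138 in control colon. KO libraries were all above control, and transferred replicate 4 alone reached their range. Between KO and control colon the log2 fold change was 5.16 (standard error 1.08, adjusted p = 0.00261). For *Ighg2b* it was 2.61 (adjusted p = 0.0394), for *Ighg2c* 4.28 (adjusted p = 0.0366) and for *Ighg3* 3.08 (adjusted p = 0.0112), and in these 3 genes KO replicate 4 overlapped the control libraries. *Ighg2c* had 822, 1508 and 62.4 normalized counts in KO colon and 29.2, 2.98 and 89.3 in control colon. None of the 4 IgG genes was called in transferred against KO colon or against control colon. *Ighe*, the IgE heavy chain gene, had 2.74, 5.03, 6.88, 53.4 and 2.19 in transferred, 18.6, 45.5 and 27.4 in KO and 0, 0 and 1 reads in the control libraries. The constant genes of the IgG classes are close relatives, so how reads were divided among them is uncertain.

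Few genes of the machinery that carries *Pigr* and *Fcgrt* cargo through epithelial cells were called. Of 11 transcytosis genes, 0 were called higher and 1 lower in KO than in control colon (median log2 fold change 0.11), beside 22.7% and 22.9% of all tested genes. In transferred against KO colon 1 was called higher and 1 lower (median -0.16), beside 17.0% and 14.2%. In transferred against control colon 0 of the 11 passed in either direction, beside 1.14% and 0.453%. Counts among so few genes do not show that the machinery was unchanged. The gene called lower in KO colon was *Rab11fip5*, an effector of the recycling endosome, with log2 fold changes of -0.55 (standard error 0.18, adjusted p = 0.0257) in KO over control and 0.54 (0.16, adjusted p = 0.0246) in transferred over KO colon. The vesicle fusion gene *Vamp3* was the one called lower in transferred than in KO colon (-0.28, adjusted p = 0.0407). *Exoc4*, of the exocyst, had 0.33 (adjusted p = 0.0594), *Vamp3* 0.26 (adjusted p = 0.0682) and the epithelial recycling gene *Rab25* 0.21 (adjusted p = 0.104) in KO over control colon.

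Of 14 cytokines and factors known to induce Fc receptors or *Pigr*, 11 had a mean of at least 10. *Ifng* and *Il17a* reached this limit only through KO colon, where they averaged 61.8 and 71.9 normalized counts. Of the 11, 10 were called higher and 0 lower in KO than in control colon (median log2 fold change 2.01). In transferred against KO colon 0 were called higher and 9 lower (median -1.16). *Ifng*, the interferon gamma gene, had 8.21, 2.01, 2.95, 7.62 and 2.19 normalized counts in transferred colon, 30.3, 88.2 and 66.8 in KO colon, and 0 in each control library. Against a floor of 3 reads per control library it was at least 20.3-fold higher in KO and at least 1.51-fold higher in transferred colon, and with *Ifng* at these bounds the list had medians of 2.01 and 0.75. The cytokine genes *Il1b* and *Tnf* had log2 fold changes of 4.87 (adjusted p = 3.18e-05) and 4.08 (adjusted p = 4.75e-05) in KO over control colon. *Pigr*, also known to be induced by these cytokines, was not called in any of the 3 comparisons. Whether these factors had a part in the receptor levels was not tested.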

How the data were processed

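RNA of whole colon was measured in 11 libraries. The authors extracted it from frozen tissue, sequenced stranded mRNA, aligned it to GRCm39 and counted reads per gene; the submitters' processing notes name HISAT2 (2.2.1), SAMtools (1.13), HTSeq (1.99.2) and DESeq2 (1.40.2). The paper names a second aligner and does not say which libraries it served. For the annotation release and the strand setting, the sources used here give nothing. The deposited signal values are normalized counts, reads divided by 1 factor per library, which leaves differences in tissue makeup in place. Dividing by the step of each library gave back whole reads within 0.05 for 100% of values, and no pair of libraries of a group agreed within sampling noise.

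Genes were named and measured with a GENCODE annotation of GRCm39, which held 99.2% of the identifiers. Groups came from the labels. Tests used limma 3.58.1 in R 4.3.3 with a variance trend, all 3 groups in 1 fit and a pseudocount of 1 before taking log2 values, on genes of mean 10 or more, with Benjamini-Hochberg adjustment over all 16781 tested genes. A fold change on this scale understates the change of low genes. In every list, a gene can pass the limit on the mean through the group in which it is high. The test was tried on simulated data first. All 7 genes are described. Of each list of acting genes, up to 4 with the smallest adjusted p in KO against control colon are named, with *Tyrobp*, *B2m*, *Igha*, *Jchain*, *Trim21* and the IgG constant genes. Some genes that this rule names are not reported here. The genes and lists were chosen with earlier results of these data known. Alternatives were pseudocounts of 0.5 and 10, a minimum mean of 50 or none, quantile and TMM scaling, count models on the recovered reads with edgeR 4.0.16 or DESeq2 1.42.0, fits to the 2 compared groups alone, a fit lacking the variance trend, a block for the replicate number, the threshold of the study (p under 0.05 before adjustment, with log2 fold changes beyond 0.6), and each library left out in turn. Promoters came from the RefSeq table, and all 7 genes had an entry. A level of 10 normalized counts rests on about 10 reads.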

Additional observations from a re-analysis of the deposited data

Results flagged for a closer look

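The 5 transferred libraries were checked in 39 groups, 1 for each gene described with these libraries. Of these groups, 4 held a library whose gap to its nearest neighbour took up most of the range. The chance rate of about 1 in 20 assumes independent groups of normally spread values. These genes share their libraries, so 4 of 39 cannot be set against that rate. *Ighe* was highest in transferred replicate 4, at 53.4 normalized counts, beside a median of 5.03 for the group. *Ighg1* was also highest there, at 2964 beside a median of 258, and so was *Ighg2c*, at 958 beside a median of 84.5. *Ptpn6* was lowest in transferred replicate 2, at 663 beside a median of 889. None of the 7 Fc receptor and transport genes stood out in this way.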

How the results depend on the processing

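The 5 receptor genes were called higher in KO than in control colon under each of the 13 other settings and without any 1 library. The number called higher in transferred against control colon, 2 as reported, was 1 with a pseudocount of 10 and 1 with edgeR, 0 with only the 2 groups compared and 0 with no variance trend, 5 with DESeq2, 5 with the threshold of the study in limma and 5 with that threshold in DESeq2, a setting chosen after the data were seen. With 1 library left out it ranged from 0 to 5. The number called lower in transferred against KO colon, 5 as reported, ranged from 1 to 5 with 1 library left out. The number called higher there, 0 as reported, was 1 (*Pigr*) with quantile normalization and 1 with DESeq2, and 0 to 1 with 1 library left out. The number called lower in KO against control colon was 0 to 1 with 1 library left out (*Fcgrt*). No fold change turned its direction among calls.

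With the replicate number as a block, the number called lower in transferred against KO colon was 1. Between transferred and KO colon, the deviations of same-numbered libraries from their group means correlated at -0.03, 0.1 and 0.01. Between transferred and control colon the correlations were 0.39, 0.27 and -0.1, and between KO and control colon 0.05 and 0.06. The labels do not say whether the numbers pair the samples, so what the calls lost under the block mean was not tested. The replicate block changed no other count of the 7 genes by more than 1.5 times. Over all genes, the counts in transferred against control colon (192 higher and 76 lower) were 773 and 461 with DESeq2, 112 and 65 with edgeR, 107 and 38 with no variance trend, 18 and 5 with only the 2 groups compared, 617 and 313 with the block, 950 and 713 with the threshold of the study in limma, 1037 and 786 with it in DESeq2, and 11 to 542 and 0 to 289 with 1 library left out. Those called lower in transferred against KO colon (2380) were 1391 and 1322 with that threshold in limma and in DESeq2, 1211 without KO replicate 3 and 1372 without KO replicate 4, and those called higher (2860) were 1867 without KO replicate 3. *Fcgr1* had 23 to 32 reads per control library, and whether this depth limits its calls was not tested.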
